A study of Mus musculus with 6 samples.

Results

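The 9 ligand genes Bmp2, Bmp4, Bmp5, Bmp6, Bmp7, Gdf5, Gdf6, Gdf7 and Gdf11 were followed through 6 libraries of cells sorted from mouse forebrain, as the rows of the deposited table that carry these symbols. Each symbol belonged to 1 gene ID, so the set held 9 of the 52636 genes in the table. Each library came from a pool of cells taken at E12.5 (embryonic day) that carried the surface protein Prominin1 and that the labels call cortical radial glia. The 3 SmadNes pools were Smad1wt/fl and Smad5wt/fl and carried Nestin:Cre+/0, with Cre recombinase under Nestin control in neural progenitors. The 3 control pools, from littermates, were likewise Smad1wt/fl and Smad5wt/fl, with Nestin:Cre0/0. All pools therefore carried the same floxed alleles of Smad1 and Smad5, each beside a wild-type allele, on a mixed background of CD1, 129/ola and C57BL6. The pools are called SF3, SF4 and SF5_6 in both genotypes, and the sources used here do not give how many embryos or litters made up a pool, or what a name marks.

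The genes lie at separate places on GRCm38. Bmp2 (chr2:133552159-133562885), Gdf5 (chr2:155941023-155945367) and Bmp7 (chr2:172868012-172940321) are on chromosome 2, and Gdf6 (chr4:9844372-9862345) on chromosome 4. Bmp5 (chr9:75775364-75900310) is on chromosome 9, Gdf11 (chr10:128882295-128891718) on chromosome 10 and Gdf7 (chr12:8297918-8301954) on chromosome 12. Bmp6 (chr13:38345107-38500302) is on chromosome 13 and Bmp4 (chr14:46383520-46390669) on chromosome 14. All 9 are annotated as protein-coding.

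Bone morphogenetic proteins (BMPs) and growth and differentiation factors (GDFs) are secreted dimers of the TGF-beta superfamily. Most of them bind paired type I and type II receptor kinases that activate Smad1, Smad5 and Smad9, which act in the nucleus together with Smad4, whereas Gdf11 signals like an activin through Smad2 and Smad3. In the embryonic forebrain BMPs are best known as signals of the dorsal midline, the cortical hem and the choroid plexus, where they pattern the neighbouring cortex, and the meninges are a further source. The comparison of genotypes asks whether the ligand transcripts differ between floxed cells with and without Cre, and the comparison of names asks how far they vary between pools of cells.

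The libraries held between 32997423 and 40744672 expected counts, so a count of 0 allowed at most 0.0909 CPM (counts per 1000000), a limit of 3 counts that covers counting error only. Smad5 stood at 390.4 ± 18.9 CPM in SmadNes and 292.0 ± 6.76 CPM in controls (SD, n = 3 each, edgeR adjusted p 0.965, and 0.00757 with the replicate block). Smad1 stood at 88.5 ± 3.84 CPM in SmadNes and 75.5 ± 2.58 CPM in controls (edgeR adjusted p 1, and 0.257 with the block). A count over the whole gene does not check the deletion of a floxed part. All 9 radial glia markers were present, with a summed level of 1687 to 2172 CPM over the 6 libraries, and the 6 neuronal markers summed to 2518 to 4037 CPM, so the sorted cells were not radial glia alone. In RNA from pooled cells, more cells of a type and more RNA per cell cannot be told apart.

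Bmp7 and Gdf11 were the most abundant ligand transcripts per length in both genotypes, and Gdf6 was close to absent. Bmp7 stood at 10.2 ± 2.36 CPM per kb of exon in SmadNes and 10.3 ± 4.27 CPM per kb in controls (SD, n = 3 each), and Gdf11 at 7.94 ± 1.86 and 8.43 ± 1.84 CPM per kb in the same order. A middle group followed, with Bmp4 at 2.63 ± 1.55 CPM per kb in SmadNes and 2.74 ± 1.88 in controls, Bmp6 at 2.53 ± 0.978 and 2.67 ± 1.52, and Bmp5 at 2.33 ± 0.991 and 2.13 ± 1.21. Gdf5, known for its part in joint formation, stood at 1.35 ± 0.378 CPM per kb in SmadNes and 1.604 ± 0.848 in controls, and Bmp2, the closest relative of Bmp4, at 0.651 ± 0.151 and 0.573 ± 0.205. Gdf7, a roof plate ligand of the dorsal neural tube, reached 0.184 ± 0.193 CPM per kb in SmadNes and 0.232 ± 0.371 in controls.

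The order of the ligands was the same in both genotypes. Across the libraries of a genotype Bmp7 and Gdf11 had overlapping ranges, as had Bmp4, Bmp6, Bmp5 and Gdf5 between neighbours. Within a library, Bmp7 was above Gdf11 in 6 of 6, Bmp6 above Bmp5 in 6 of 6, Bmp5 above Gdf5 in 6 of 6 and Bmp4 above Bmp6 in 3 of 6. The ranges of Gdf11 and Bmp4 did not overlap in either genotype, nor did those of Gdf5 and Bmp2. Without the SF5_6 library the middle group changed places, to Bmp6, Bmp5 and Bmp4 in SmadNes and to Bmp6, Bmp4 and Bmp5 in controls. Bmp7 and Gdf11 together made up 61.6% of the summed ligand level per kb in SmadNes SF5_6 and 60.4% in control SF5_6, against 68.1% to 70.3% in the SF3 and SF4 libraries.

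**Figure D1:**
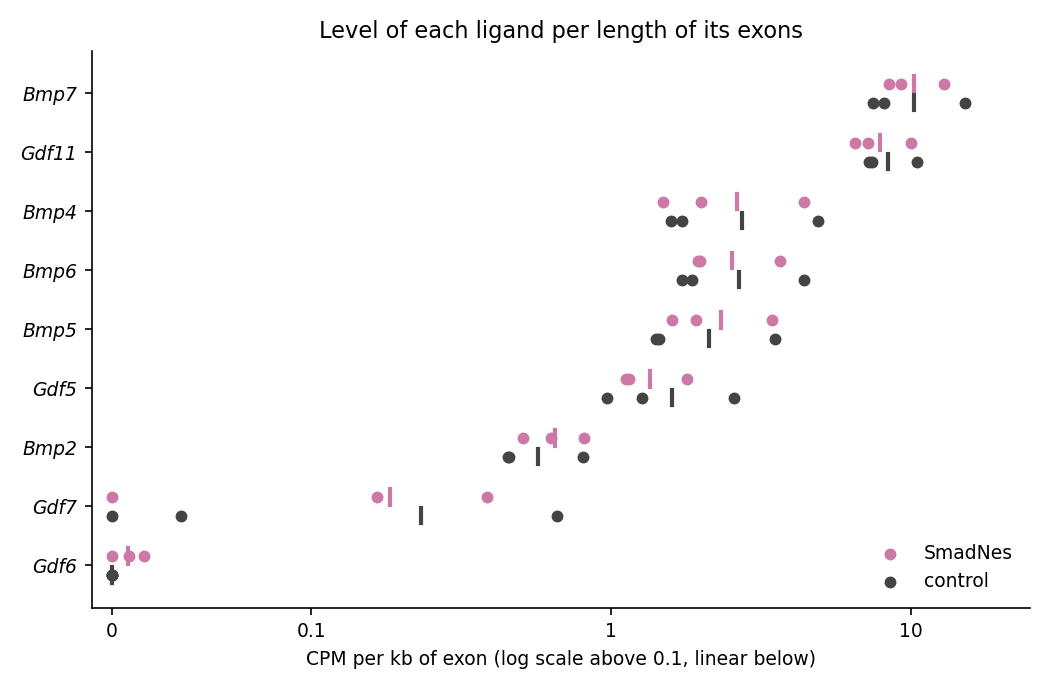
Level of each ligand in CPM per kb of merged exon, on an axis that is logarithmic above 0.1 and linear below it. Points are the 3 SmadNes and the 3 control libraries and vertical ticks are their means. Bmp7 and Gdf11 stand apart from the other ligands, and the SmadNes and control points of each ligand overlap.

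None of the ligands differed detectably between SmadNes and control cells. EdgeR's quasi-likelihood test called 0 of the 7 ligands that passed the filter on low counts, against 0% of all 16869 genes tested (calls here need a p under 0.05 after Benjamini-Hochberg adjustment). Before adjustment 177 genes and no ligand had a p under 0.05 in edgeR, while DESeq2 called 7 genes and limma-voom 1, none of them a ligand. These fits leave the differences between names in their error. With the replicate name as a block, 1051 genes and no ligand had an unadjusted edgeR p under 0.05. Bmp7 stood at 41.1 ± 9.49 CPM in SmadNes and 41.3 ± 17.2 CPM in controls (SD, n = 3 each), a log2 difference of -0.01 (95% interval -0.74 to 0.73, edgeR adjusted p 1). Gdf11 stood at 32.3 ± 7.54 CPM in SmadNes and 34.2 ± 7.46 CPM in controls, a log2 difference of -0.09 (95% interval -0.60 to 0.42, edgeR adjusted p 1). For the other 5 tested ligands the log2 differences, SmadNes minus control, lay between -0.24 for Gdf5 and 0.19 for Bmp2. The genotype values of every ligand overlapped, and much of the spread within a genotype lay between the names, as the panels of CPM by library show.

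Setting each SmadNes library against the control of the same name narrowed the intervals and called no ligand either. With the replicate name as a block, edgeR called 4 genes, 0.0237% of those tested, and 0 of 7 ligands. The largest difference in that fit was for Bmp2, at 0.21 on the log2 scale (SE 0.232, 95% interval -0.32 to 0.74, adjusted p 0.915). Bmp5 had 0.17 (SE 0.108, 95% interval -0.07 to 0.42) and Gdf5 -0.18 (SE 0.167, 95% interval -0.56 to 0.20). Gdf11 had the narrowest interval, -0.21 to 0.03, and Bmp4, Bmp6 and Bmp7 had log2 differences of -0.02, -0.02 and 0.04. 

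The sign of the difference moved with the name. In the SF3 pair 6 of 7 tested ligands were higher in SmadNes, in the SF4 pair 4 of 7, and in the SF5_6 pair 0 of 7. Over all genes tested, SmadNes was the lower library for 47.0% in SF3, 49.96% in SF4 and 53.2% in SF5_6. Bmp7, for one, had log2 differences of 0.31, 0.06 and -0.23 in these pairs, and Gdf5 had 0.20, -0.14 and -0.52. Gdf11 was the 1 tested ligand with the same sign in all 3, at -0.04, -0.16 and -0.07. With 1 library per name and genotype, whether the genotype difference depends on the name was not tested.

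**Figure D2:**
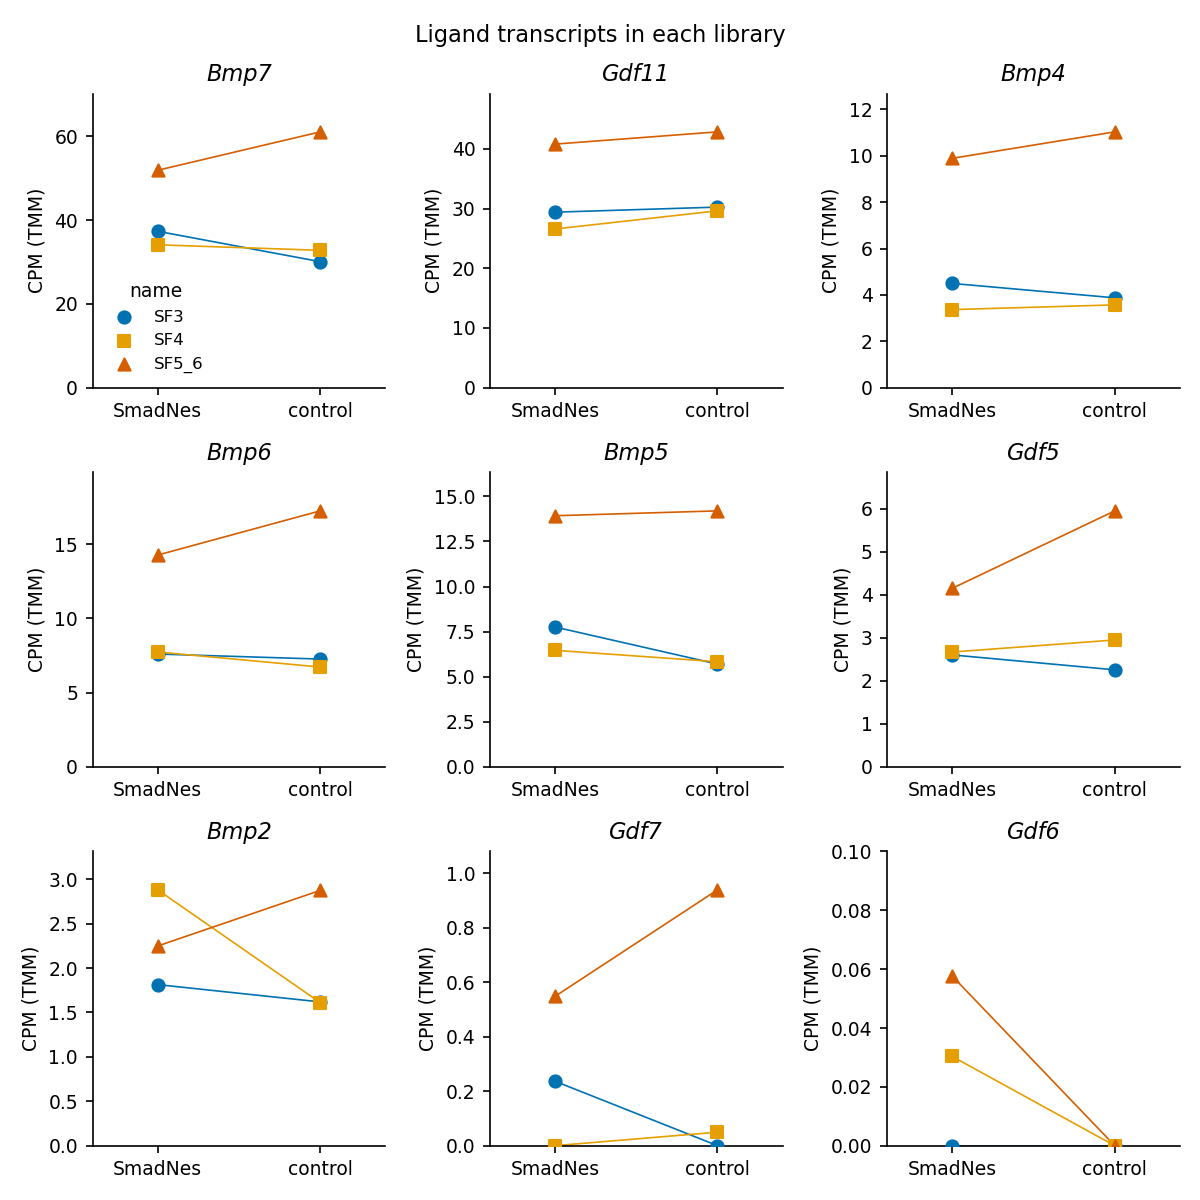
CPM of each ligand (TMM scaling, vertical axes from 0, a scale of its own per panel) in the SmadNes and control libraries, with lines joining libraries of 1 name. The SF5_6 triangles lie above all other points for Bmp4, Bmp5, Bmp6, Bmp7, Gdf5, Gdf7 and Gdf11, and not for Bmp2 or Gdf6.

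Between the names, by contrast, 6 of the 7 tested ligands differed, and all 6 were highest in the SF5_6 pools of both genotypes. Bmp4, Bmp5, Bmp6, Bmp7, Gdf5 and Gdf11 were called by edgeR's quasi-likelihood test of the names with genotype as a covariate, and Bmp2 was not. That test called 28.8% of all genes tested, 13.6% as highest in SF5_6 and 12.6% as lowest there, so the names differed widely in genes of many kinds. The median log2 difference of the 7 ligands, SF5_6 minus the mean of SF3 and SF4, was 0.94, against 0.01 for all genes tested. Both SF5_6 libraries lay above all 4 others for 6 of the 7 ligands, against 23.1% of genes.

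Bmp4, a dorsal midline signal and a strong inducer of Id genes, had the largest difference. It stood at 9.89 CPM in SmadNes SF5_6 and 11.03 CPM in control SF5_6, against 4.50 and 3.37 CPM in SmadNes SF3 and SF4, and 3.87 and 3.57 CPM in control SF3 and SF4. Both SF5_6 libraries were above the highest of the others, and the genotypes lay close within each name. The level in SF5_6 was 2.74-fold that of SF3 and SF4, a log2 difference of 1.45 (SE 0.117, edgeR adjusted p 1.28e-04).

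Bmp5, Bmp6 and Bmp7 form a subfamily of close relatives that share receptors. Bmp5 stood at 13.9 CPM in SmadNes SF5_6 and 14.2 CPM in control SF5_6, against 7.75 and 6.46 CPM in SmadNes SF3 and SF4, and 5.70 and 5.83 CPM in control SF3 and SF4. Bmp6 stood at 14.3 CPM in SmadNes SF5_6 and 17.3 CPM in control SF5_6, against 7.60 and 7.73 CPM in SmadNes SF3 and SF4, and 7.26 and 6.72 CPM in control SF3 and SF4. Both genes were higher in SF5_6 without overlap, 2.20-fold for Bmp5 (log2 difference 1.14, SE 0.109, edgeR adjusted p 3.50e-04) and 2.15-fold for Bmp6 (1.11, SE 0.107, adjusted p 3.73e-04). Bmp7, which is also made in meninges, stood at 51.9 CPM in SmadNes SF5_6 and 61.1 CPM in control SF5_6, against 37.4 and 34.1 CPM in SmadNes SF3 and SF4, and 30.1 and 32.8 CPM in control SF3 and SF4. Its SF5_6 values were again the highest, 1.68-fold the level of the other names (log2 difference 0.75, SE 0.092, edgeR adjusted p 0.00122).

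Gdf5, Gdf6 and Gdf7 form another subfamily, and its members were scarce in these cells. Gdf5 stood at 4.15 CPM in SmadNes SF5_6 and 5.96 CPM in control SF5_6, against 2.60 and 2.67 CPM in SmadNes SF3 and SF4, and 2.26 and 2.95 CPM in control SF3 and SF4. It was 1.92-fold higher in SF5_6 (log2 difference 0.94, SE 0.170, edgeR adjusted p 0.00885), a call lost without control SF5_6, the highest library (adjusted p 0.127). Gdf7 did not pass the filter on low counts, with 19 counts in SmadNes SF5_6 and 32 in control SF5_6, against 9 and 0 in SmadNes SF3 and SF4, and 0 and 2 in control SF3 and SF4. Its counts were highest in the same pools, 51 in both SF5_6 libraries against 9 in SF3 and 2 in SF4. With no filter edgeR gave an adjusted p of 6.73e-06 for the names. That fit gave smaller values for every tested ligand (for Bmp4 4.88e-15, against 1.28e-04 with the filter). The Gdf7 value therefore cannot be set beside those of the filtered fit. Gdf6 had 3 counts in all, 1 in SmadNes SF4 and 2 in SmadNes SF5_6, which is at or under the limit of 0 in each library.

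Gdf11, which restrains progenitor expansion in the olfactory epithelium and patterns the body axis, had a smaller difference, and the genotypes lay close within each name. It stood at 40.8 CPM in SmadNes SF5_6 and 42.8 CPM in control SF5_6, against 29.4 and 26.6 CPM in SmadNes SF3 and SF4, and 30.2 and 29.6 CPM in control SF3 and SF4. Its level in SF5_6 was 1.45-fold that of the other names (log2 difference 0.53, SE 0.054, edgeR adjusted p 4.63e-04). Bmp2 stood at 2.25 CPM in SmadNes SF5_6 and 2.88 CPM in control SF5_6, against 1.81 and 2.88 CPM in SmadNes SF3 and SF4, and 1.62 and 1.61 CPM in control SF3 and SF4. SmadNes SF4 was as high as control SF5_6, so the names overlapped, and Bmp2 was not called (log2 difference 0.41, SE 0.242, edgeR adjusted p 0.305). At 56 to 98 counts per library it was also the least deeply counted of the 7 tested ligands.

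The result rests on the SF5_6 pools. With that pair left out, an alternative chosen after the data were seen, SF3 and SF4 differed in 0 of 7 ligands, with edgeR adjusted p between 0.542 and 0.979. That fit called few genes of any kind, 1250 of 16917, so 0 of 7 says little about the ligands. Without the SF3 or the SF4 pair the same 6 ligands were called, beside 4580 of 17055 and 4763 of 17137 genes.

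**Figure D3:**
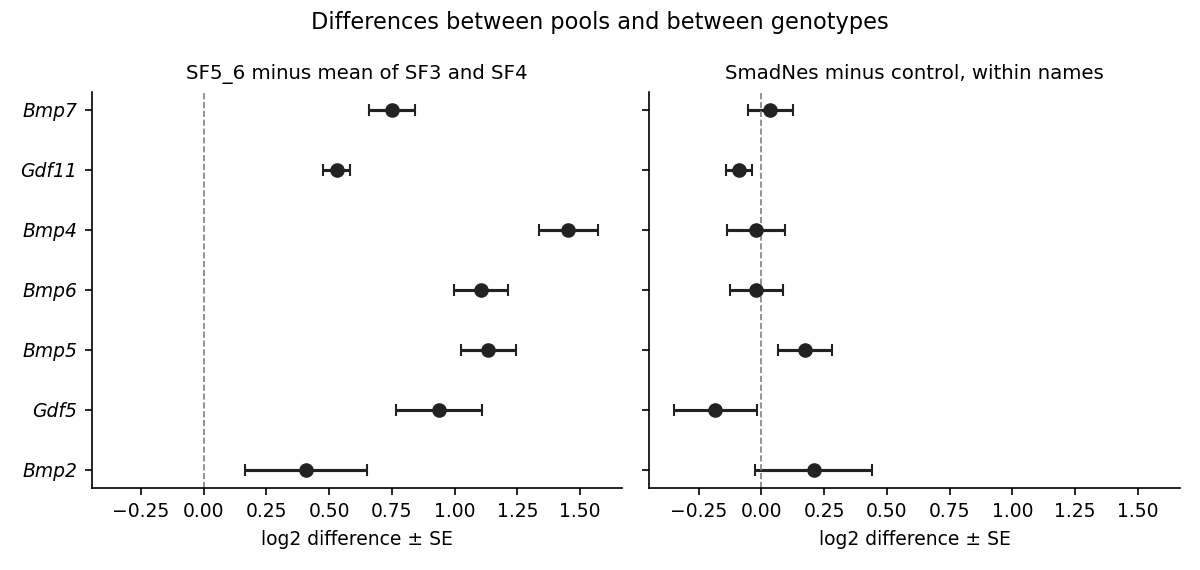
Log2 differences with their SE (edgeR) of the 7 tested ligands. On the left, SF5_6 minus the mean of SF3 and SF4 lies above 0 for all 7, from 0.41 for Bmp2 to 1.45 for Bmp4, and on the right, SmadNes minus control within the names lies between -0.18 and 0.21.

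The sequences just upstream of the start sites are shown for Bmp4, Bmp5 and Gdf11, which rose together in SF5_6 by different amounts and differ in base composition. RefSeq promoter windows (GRCm38.p6, 250 bases before the annotated start) were matched for 5 of the 9 members. All 250 bases of the Bmp6 window lay in annotated exons, after the gene start given above. Capitals mark GTCT or its reverse complement AGAC, the short box that Smad proteins bind. Each sequence runs 5′ to 3′ on the strand of its gene, and ends before the first base of any annotated exon. The windows lie at chr14:46390670-46390919 on the minus strand for Bmp4, at chr9:75775115-75775363 on the plus strand for Bmp5, and at chr10:128891719-128891968 on the minus strand for Gdf11.
Bmp4: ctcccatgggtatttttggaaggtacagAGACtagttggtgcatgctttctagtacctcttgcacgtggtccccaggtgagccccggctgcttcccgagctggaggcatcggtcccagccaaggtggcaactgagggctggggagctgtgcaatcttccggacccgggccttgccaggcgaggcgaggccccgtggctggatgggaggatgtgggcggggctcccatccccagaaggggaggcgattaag
Bmp5: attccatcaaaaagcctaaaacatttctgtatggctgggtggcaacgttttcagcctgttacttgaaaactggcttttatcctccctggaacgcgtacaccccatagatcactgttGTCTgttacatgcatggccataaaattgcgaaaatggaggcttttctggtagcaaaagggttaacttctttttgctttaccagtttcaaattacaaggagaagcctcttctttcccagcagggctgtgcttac
Gdf11: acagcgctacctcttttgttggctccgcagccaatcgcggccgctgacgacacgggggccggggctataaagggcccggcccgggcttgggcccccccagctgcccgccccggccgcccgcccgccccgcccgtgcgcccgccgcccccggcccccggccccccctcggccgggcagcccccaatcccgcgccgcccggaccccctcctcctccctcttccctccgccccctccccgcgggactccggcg

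The Bmp4 window held 11 CpG dinucleotides and the Gdf11 window 33, while Bmp5 had 4, below the median of 6 over all 32536 windows. The G and C content was 63.2% for Bmp4, 42.8% for Bmp5 and 81.2% for Gdf11, around a median of 52.4%. The Smad box GTCT, counted on both strands, occurred once in the Bmp4 window, once in that of Bmp5 and not in that of Gdf11, and it occurred in 82.8% of all windows. The palindrome GGCGCC, a GC-rich element that BMP Smads can bind, occurred in none of the 5 matched windows and in 9.65% of all. The E-box CACGTG, also a palindrome, occurred once in the Bmp4 and Bmp6 windows and in 6.04% of all. The match for Bmp6 lies within annotated exons, as does all of its window. These matches describe letters only.

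Genes that act with the ligands included some that were highest and some that were lowest in SF5_6. The counts of called genes are to be read beside the 28.8% of all genes that the test of the names called. Of 11 tested BMP target genes, 9 were called and 7 of those were highest in SF5_6, with a median log2 difference of 0.73. Msx2, a homeobox gene of the dorsal midline, had 1.69 (SE 0.114, edgeR adjusted p 4.57e-05), the BMP-induced inhibitor Id3 had 1.59 (SE 0.119), Id1 had 1.17 (SE 0.131) and Msx1 had 1.01 (SE 0.104). Id2 was the called target lowest in SF5_6, at -0.64 (SE 0.086), and is named here after its values were seen. This list shares Smad6, Smad7, Smad9 and Bambi with other lists.

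Of 7 tested BMP receptors 3 were called, with a median of 0.09. They were the type I receptors Bmpr1a at 0.13 (SE 0.040), Acvr1 at -0.40 (SE 0.055) and Acvrl1 at 1.46 (SE 0.332, edgeR adjusted p 0.0174). Acvrl1, best known from endothelium, averaged 0.933 CPM and is named after its values were seen. The 3 further receptors that serve Gdf11 were all called, with Tgfbr1 at 0.19 (SE 0.035), Acvr1b at -0.17 (SE 0.038) and Acvr1c at -1.36 (SE 0.122). All 6 tested co-receptors were called, 4 as highest and 1 as lowest in SF5_6. Among them Tgfbr3 had 0.73 (SE 0.130), the decoy receptor Bambi 0.86 (SE 0.153), the co-receptor Rgmb 0.31 (SE 0.044) and Neo1, which encodes the RGM receptor neogenin, -0.43 (SE 0.048). Without control SF5_6, 1 BMP receptor and 1 of the Gdf11 receptors were called.

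Of 13 tested extracellular antagonists, which bind ligands or limit their reach, 4 were called, a share close to that of all genes, and 7 were called without control SF4. Fstl1 had a log2 difference of 0.80 (SE 0.054, edgeR adjusted p 4.60e-05), Chrdl1 had 1.03 (SE 0.151), Nbl1 had 0.54 (SE 0.137) and Bmper had -0.54 (SE 0.095). Of 7 proteases that mature the ligands or cleave antagonists, 3 were called, all highest in SF5_6, namely Pcsk6 at 0.49 (SE 0.099), Pcsk5 at 0.42 (SE 0.099) and Bmp1 at 0.20 (SE 0.043). DESeq2 called 1 protease, as edgeR did without SmadNes SF4, control SF3 or control SF5_6. Among 6 Smad genes of the pathway, Smad9 had 0.73 (SE 0.215) and Smad4 -0.16 (SE 0.040), and the other 4, Smad1 and Smad5 included, were not called. That count is also close to the share of all genes, and it was 0 with DESeq2 and without SmadNes SF4, and 1 without control SF3 or control SF5_6.

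The remaining ligands of the superfamily gave another picture. Of 11 tested, 6 were called, 1 as highest and 3 as lowest in SF5_6, and their median was -0.08. Bmp3, an atypical member that opposes other BMPs, had -1.69 (SE 0.125, edgeR adjusted p 5.10e-05), and the activin subunit Inhbb had -0.59 (SE 0.068). Tgfb2 had 0.14 (SE 0.055) and Tgfb1 had 1.17 (SE 0.189), and neither was highest in SF5_6. Tgfb1 stood at 4.97 and 4.05 CPM in SmadNes and control SF3, and at 3.60 and 3.90 CPM in SF5_6. In SF4 it was lowest, at 0.485 and 0.719 CPM. The difference between the 2 sets of ligands was not tested. Between genotypes edgeR called no gene of any of these 8 lists, and with the replicate block it called Smad5 alone among them (adjusted p 0.00757).

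Markers of several other cell types moved with the names. Their counts are to be read beside the 28.8% of all genes called, and the 13.6% called as highest in SF5_6. All 6 cortical hem markers were called and highest in SF5_6 in the fit. Their sum was 398 to 494 CPM there, against 191 to 324 CPM in the other 4 libraries. All 6 were also higher in SF4 than in SF3, by 0.44 (Rspo3) to 0.83 (Wnt2b) on the log2 scale. In the same fit the 7 tested ligands had SF4 minus SF3 values from -0.27 (Bmp4) to 0.36 (Bmp2). In SmadNes, Wnt2b was higher in SF4 (37.8 CPM) than in SF5_6 (33.1 CPM). Of the 11 markers of mesenchyme and meninges, 10 were called as highest in SF5_6. The 11 summed to 1069 to 1334 CPM there, against 291 to 910 CPM. Their sums were 910 and 654 CPM in SmadNes and control SF3, and 291 and 462 CPM in SF4. All 7 ventral telencephalon markers were called as highest in SF5_6, with sums of 137 to 194 CPM against 17.4 to 65.0 CPM, as were 3 of 4 tested markers of diencephalon and eye, with sums of 94.2 to 106 CPM against 14.8 to 17.2 CPM. Shh, Six6 and Otp of that last list were at 0 in some libraries. Of 7 tested erythroid genes 7 were called, 5 as highest in SF5_6, with sums of 643 to 1090 CPM against 115 to 376 CPM.

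Other marker lists gave mixed values. Choroid plexus markers summed to 161 to 311 CPM in SF5_6, against 196 to 249 CPM in the others, and 1 of 6 was called. The 6 neuronal markers were lower in sum, at 2518 to 2555 CPM against 3313 to 4037 CPM, while radial glia markers stood at 2102 to 2172 CPM against 1687 to 1984 CPM. Cajal-Retzius markers summed to 866 to 954 CPM against 972 to 1370 CPM, although 4 of 5 were called as highest in SF5_6. All 6 microglial genes were called, none as highest in SF5_6. They summed to 77.1 and 72.8 CPM in SmadNes and control SF3, and to 57.46 and 54.55 CPM in SF5_6. In SF4 the sums were lowest, at 9.16 and 10.98 CPM. Endothelial markers summed to 21.6 to 22.8 CPM against 16.9 to 21.6 CPM. Kdr, which was not called, held most of that sum, at 14.8 and 16.1 CPM in SmadNes and control SF5_6. Of 5 tested endothelial markers 2 were called, 1 of them as highest in SF5_6, and the median log2 difference was 0.70. Surface ectoderm markers summed to 4.09 to 4.34 CPM against 2.29 to 2.75 CPM, with Krt14 at 0 throughout. Epcam held most of this sum, at 3.89 and 4.17 CPM in SmadNes and control SF5_6. Trp63, the other tested marker of that list, had a log2 difference of -1.27 (SE 0.504) and was not called. The part of these cell types in the ligand differences was not tested.

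**Figure D4:**
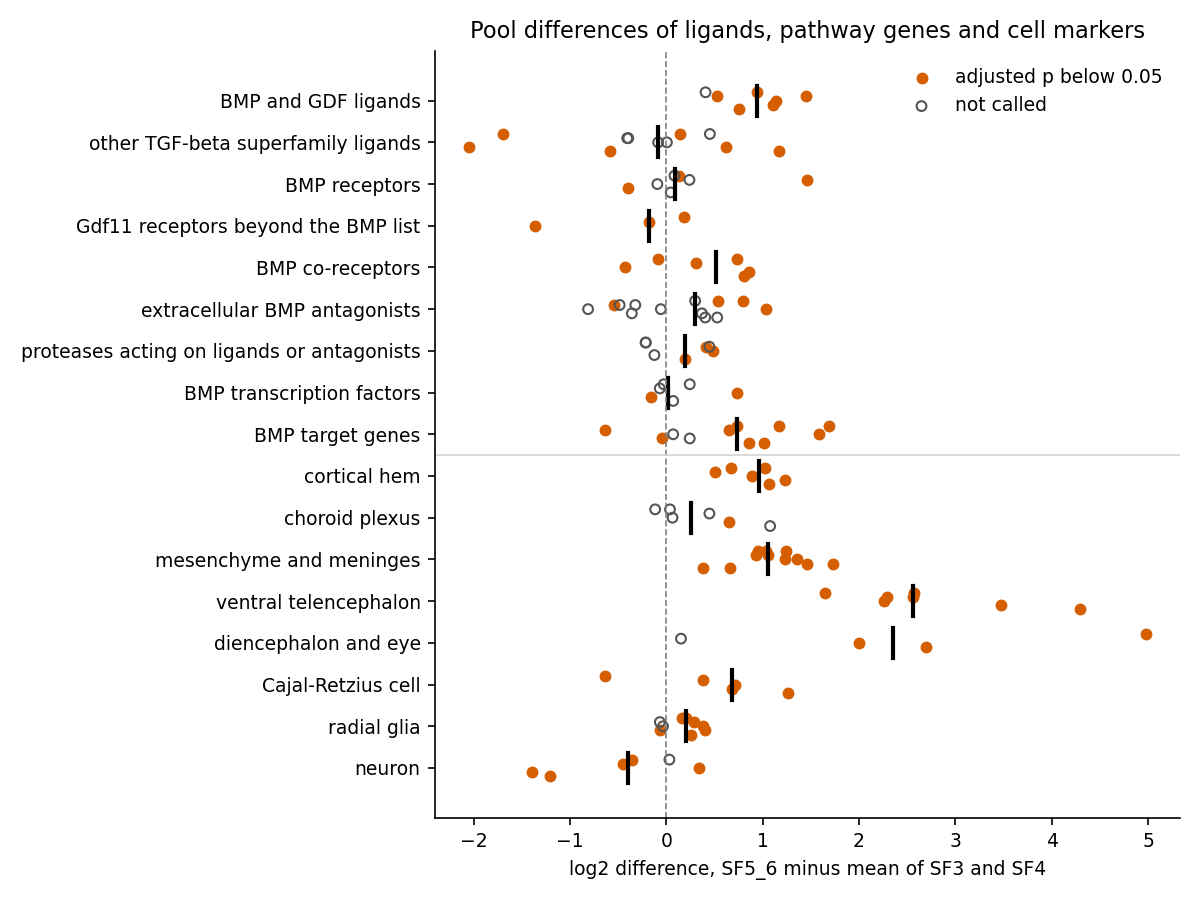
Log2 difference of each tested gene between the SF5_6 pools and the mean of the SF3 and SF4 pools, by list, with genes called by edgeR's test of the names filled and list medians as black ticks. The ligand median is 0.94, that of cortical hem markers 0.96, that of mesenchyme markers 1.06 and that of neuronal markers -0.40.

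Profiles over the 6 libraries were compared by the root mean square (RMS) difference of log2 CPM after the mean of each gene was removed, so a small value means a like pattern. The 6 libraries share 3 names and with 16869 genes close neighbours exist for any profile, so these values are a description. Among the ligands, Bmp5 and Bmp6 were nearest to each other, at 0.135, beside an RMS of 0.552 for Bmp5 and 0.526 for Bmp6 around their own means. Bmp4 was nearest to Bmp5, at 0.189, and Bmp7 to Gdf5, at 0.157. Gdf11 was nearest to Bmp7, at 0.168, and so was Bmp2, at 0.311, which is hardly less than its own RMS of 0.346.

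Among the listed genes, the homeobox gene Msx1 was nearest to both Bmp5 (RMS difference 0.103) and Bmp6 (0.133). Id3 was nearest to Bmp4 (0.209), Lhx5 of Cajal-Retzius cells to Bmp7 (0.118), Atoh8 to Gdf5 (0.135), Rgmb to Gdf11 (0.114) and the antagonist Nog to Bmp2 (0.171). Over all protein-coding genes that averaged 1 CPM or more, the nearest 3 were Mest, Lgr4 and Efna5 for Bmp4, with Mest at 0.0509. For Bmp5 they were Ptpn14, Arl4a and Chrna3, for Bmp6 Stk26, Metrn and the Hedgehog receptor Ptch1, and for Bmp7 Slc39a12, Necab2 and Dcdc2a. Abcg5, Fam84b and Ccdc60 were nearest to Gdf5, Slc8b1, Spred3 and Plin3 to Gdf11, and Nipal1, Tmem132c and Stox1 to Bmp2.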

How the data were processed

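RNA was measured in 3 SmadNes and 3 control pools of Prominin1-sorted forebrain cells. Per the labels' protocols, stranded mRNA libraries were mapped with STAR 2.5.3a and quantified with RSEM 1.3.0 on GENCODE M15. DESeq2 1.18 is listed too, per the submitters' processing notes. The authors deposited expected counts per gene as whole numbers without scaling, and the sources used here do not give how they were rounded. By estimation, RSEM shares ambiguous reads among genes. Bmp6 overlaps Txndc5 on the opposite strand, and reads of these genes are kept apart only where the counting used the strand.

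All 6 value columns were used. Counts were tested with edgeR 4.0.16 in R 4.3.3 (quasi-likelihood F test, TMM scaling, filterByExpr), adjusted over all 16869 genes tested. Genotype was the only term in the comparison of genotypes, and the test of names took both name coefficients with genotype as covariate, which leaves 2 residual degrees of freedom. Levels per kb used merged exons of GENCODE M21, which has the same genome build. Alternatives were RLE scaling, DESeq2 1.42.0, limma-voom 3.58.1, no filter, each library left out, the replicate block, each pair left out, the longest transcript and scaling without TMM. The fits were checked on simulated counts. Those for the genotype test held no differences between names, so the check does not cover that spread.

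Deviations from the genotype mean correlated across genes at 0.493, 0.697 and 0.724 between libraries of 1 name. Libraries of 1 name were thus taken as pairs, and the labels mention pairs. Between names the correlation was at most -0.0582. Removing the genotype mean pushes these values below 0 where those within names are positive, so they are no separate evidence of pairing. Counts of any 2 libraries of a genotype differed by more than sampling (chi-square over its degrees of freedom 10.6 to 43.9). The labels do not tie pools to separate litters, so a p reflects only how the pools vary. In the test of names the error comes from how the genotypes disagree within a name, as no name has replicates within a genotype.

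The members, lists and tests were chosen with earlier results of these data known. Named genes were the 9 members, up to 4 called genes per list by smallest p with a mean of at least 1 CPM, Smad1 and Smad5, and the 3 nearest profiles per tested member, with the nearest gene of the lists. Hjv was matched under its older symbol Hfe2.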

Additional observations from a re-analysis of the deposited data

How the results depend on the processing

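No ligand was called between SmadNes and control under any of 16 alternatives, in which their adjusted p lay between 0.577 and 1. The count of all genes called, 0 in edgeR without the block, was 7 with DESeq2, 1 with limma-voom and 4 with the replicate block. With the replicate block and the SF3, SF4 or SF5_6 pair left out it was 10, 48 and 149, and with the block DESeq2 called 13 and limma-voom 8, 2 alternatives chosen after the data were seen. Leaving out 1 library gave 0 genes each time, with a range of 0 to 0. Between names, 4864 genes were called, and 3161 with DESeq2. Leaving out 1 library gave 3380 to 5029 genes, where the lone library of a name was assumed to vary like the others. Among the 7 tested ligands it called 6 each time except without control SF5_6, when Gdf5 was lost. Gdf7 is left out of these counts, since it passed the filter only in some of the fits and through the libraries where it is high. With the SF5_6 pair left out 1250 genes and 0 ligands were called, as this alternative removes the pools that differed. The order of the ligands per kb kept all 9 places under the other length and scaling, and 6 places in SmadNes and 7 in controls without their SF5_6 library. The counts of called BMP receptors, Gdf11 receptors, antagonists, proteases and Smad genes moved by over 1.5 times under 2, 2, 3, 5 and 7 of the 14 alternatives of the name test. Depth limits Gdf6 and Gdf7, which had too few counts for the filter.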
